A study of Rattus norvegicus with 23 samples.

Results

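Mature sperm from the cauda of the epididymis, the duct segment where sperm are stored, carried a small RNA population in which miRNAs of the miR-34/miR-449 family, tRNA reads of the glycine and leucine isotypes, and a single mitochondrial transcript each led their own class. The account covers the 7 libraries labelled with air treatment out of 23 in the series, chosen by that label alone. The rats were male Long-Evans animals that breathed filtered air in chamber sessions of 4 h, of which 1 week had 3 and the next had 2, and the labels give no other agent, no genotype and no age. The design text names 8 rats in each group and the labels list 7 for air. The other 16 libraries, from rats exposed to ozone, enter no result below except where rows are said to be identical or to follow each other over all 23 libraries.

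Sperm nuclei are tightly packed and transcribe little, so the RNA of mature sperm is mostly left from germ cell development or taken up along the epididymis. miRNAs are short RNAs whose bases 2 to 8, the seed, pair with target mRNAs. The miR-34b/c and miR-449 clusters are known for their high expression in meiotic and later male germ cells and in ciliated cells, and in mice their joint loss blocks sperm formation. Fragments of tRNAs, above all of tRNA-Gly and tRNA-Glu, are a major class of small RNA in mouse sperm, and piRNAs guide PIWI proteins in the germ line. All 3 marker miRNAs of male germ cells set for these samples, miR-34c-5p, miR-34b-3p and miR-449a-5p, were the 3 highest of the 425 miRNA rows. They were chosen with earlier results of these data known, so this rank is a description and no independent check of the label. Of 10 mRNAs typical of sperm (Prm1, Prm2 and Akap4 among them), 0 had a row among the 617 of the transcript table. Of 17 mRNA markers of sperm, epididymis and blood, only Lcn5, a lipocalin of the epididymal epithelium, had one. The table lists a limited set of transcripts by their small RNA reads, so a missing row does not show that an mRNA was absent.

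The values are scaled read signals in 4 tables that were each scaled separately, so shares were taken within a table and a library, where a scaling factor cancels out, and levels were not compared between tables. Whole miRNA reads could be recovered and ranged from 394925 in replicate 6 to 1199769 in replicate 1, with a median of 660821. Between 352 and 397 miRNAs were above 0 in a library, 305 were above 0 in all 7 and 4 were at 0 in all 7. Replicate 6 had the lowest median correlation with the other animals in each of the 4 tables, only just below replicate 1 for miRNA and tRNA, and values that it moved most are also given without it. Sample-sheet numbers in the labels repeat between libraries, replicates 5 and 6 among them, and which library was on which sheet or run is not given, so no batch could be compared. Counting error was small beside the differences between animals: in replicate 6, the library with the fewest reads, 74423 miRNA reads were miR-34c-5p, a share of 18.8% with a 95% Wilson interval of 18.7% to 19.0%. Such intervals cover counting error only.

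The mature sequences of the leading miRNAs are shown because a few seeds held most of the signal. They are RefSeq sequences of the assembly GRCr8, written 5′ to 3′, with the seed in capitals.
miR-34c-5p: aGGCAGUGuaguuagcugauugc
miR-449a-5p: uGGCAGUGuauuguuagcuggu
miR-34b-5p: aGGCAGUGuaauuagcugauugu
miR-34b-3p: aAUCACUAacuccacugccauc
miR-34c-3p: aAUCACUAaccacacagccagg
miR-30a-5p: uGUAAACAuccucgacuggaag
miR-25-3p: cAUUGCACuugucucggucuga
miR-191a-5p: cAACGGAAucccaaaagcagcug
miR-10a-5p: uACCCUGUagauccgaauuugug
miR-26a-5p: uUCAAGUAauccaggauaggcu
miR-146b-5p: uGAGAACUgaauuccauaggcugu
miR-16-5p: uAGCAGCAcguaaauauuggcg
A RefSeq sequence was matched to 396 of the 425 rows, which held 95.6% to 96.1% of the miRNA signal of a library, and those rows carried 324 different seeds.

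The seed GGCAGUG, shared by the 5p arms of miR-34c, miR-449a, miR-34b and miR-34a, held 35.2% ± 4.86 of the miRNA table (SD, n = 7). Its share was 24.7% in the lowest animal, 36.9% in the median one and 38.8% in the highest. miR-34c-5p made up 76.0% of that seed's signal. The seed AUCACUA, carried by the 3p arms of miR-34b and miR-34c, held a further 7.38% ± 1.20. GAGGUAG, the seed of 9 let-7 and miR-98 rows, stood second with 8.01% ± 1.82, so that the 2 seeds of the miR-34/miR-449 family and the let-7 seed were the top 3. The 10 highest of the 324 seeds together held 72.9% of the table.

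miR-34c-5p was the most abundant miRNA in 7 of 7 animals, with 26.8% ± 3.71 of the table. Its share was 27.8%, 29.9%, 27.7%, 25.9%, 28.0%, 18.8% and 29.2% in replicates 1 to 7, so that 6 animals lay within a few percentage points of each other and replicate 6 lay below them. Without replicate 6 the mean was 28.1%. miR-34b-3p followed with 6.98% ± 1.15 and ranked 2 or 3 in each animal, and miR-449a-5p held 6.40% ± 0.807 and ranked between 2 and 5. Shares of miR-34b-3p ran from 5.86% over a median of 6.62% to 8.99%, and those of miR-449a-5p from 4.87% over 6.58% to 7.14%. The ranges of these 2 miRNAs overlapped, and both lay below the lowest share of miR-34c-5p. The ratio of miR-34c-5p to miR-449a-5p was 4.19 ± 0.377 and ranged from 3.87 to 4.76, and that of miR-34c-5p to miR-34b-3p was 3.89 ± 0.635 and ranged from 3.18 to 4.75. miR-34b-5p, whose RefSeq sequence differs from that of miR-34c-5p by G11A and C23U (positions from the 5′ end, miR-34c-5p first), held 2.04% ± 0.503. miR-34a-5p, which in mammals has its own locus and is best known as a target of p53, held 0.00524% ± 0.00170. The 7 rows of the family together held 42.6% ± 5.46, from 30.8% in replicate 6 to 47.9% in replicate 2.

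**Figure D1:**
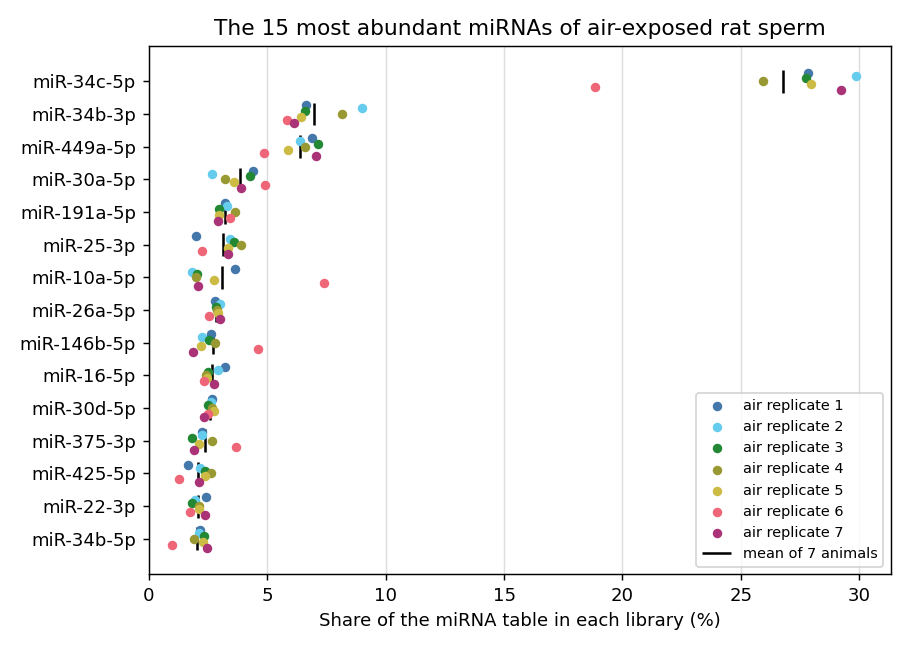
Share of the miRNA table (x axis, percent) of the 15 miRNAs with the highest mean share, 1 coloured point for each of the 7 air-exposed rats and a black line at their mean. miR-34c-5p lies far to the right of the rest in each animal, and replicate 6 is lowest for miR-34c-5p (18.8%) and highest for miR-10a-5p (7.40%).

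Below the germ cell family the table held miRNAs that many tissues express. miR-30a-5p, of a family found in many epithelia, held 3.86% ± 0.760. miR-191a-5p and miR-425-5p, which lie close together in 1 host gene in mammals, held 3.21% ± 0.266 and 2.10% ± 0.465. miR-25-3p, of the miR-106b-25 cluster in an intron of Mcm7, held 3.13% ± 0.722, and miR-16-5p, a repressor of cell cycle genes, held 2.66% ± 0.333. The shares of miR-26a-5p varied little, at 2.86% ± 0.166 with a range of 2.53% to 3.02%. miR-10a-5p, which lies within the Hoxb cluster, held 3.10% ± 2.00, with 1.83% in the lowest animal, 2.07% in the median one and 7.40% in replicate 6, where it was the second most abundant miRNA. Its mean was 2.39% without replicate 6. miR-146b-5p, an inhibitor of signalling through Toll-like receptors, held 2.70% ± 0.893, with a median of 2.53% and its highest share of 4.60% again in replicate 6, without which its mean was 2.38%.

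The families that the miRNA rows were grouped into differed widely in their share. let-7 and miR-98, repressors of proliferation genes such as Lin28, held 8.05% ± 1.83 over 17 rows, and the miR-30 family 7.34% ± 0.706 over 9 rows. The 5 rows of miR-191 and miR-425 held 5.32% ± 0.512, and the 19 rows of the miR-17-92 and related clusters 4.61% ± 0.843, of which miR-25-3p made up 68.0%. The 14 rows of the miR-10, miR-99, miR-100 and miR-125 families, below called the miR-10 group, held 3.44% ± 2.09, of which miR-10a-5p made up 90.1%, followed by miR-99b-5p with 0.195% ± 0.0878. The 3 rows of the miR-26 family held 3.02% ± 0.180, and miR-375-3p, best known from pancreatic islets, held 2.38% ± 0.629 of the table by itself. The list of the X-linked miR-506 family, a set of fast-evolving miRNAs expressed mainly in the testis, took in 12 hairpins with 21 rows, which held 2.32% ± 0.207 of the table. Values given for this family cover the listed rows only. Its highest members were miR-743b-3p with 0.713% ± 0.0901, miR-743a-3p with 0.570% ± 0.0997 and miR-871-5p with 0.334% ± 0.0598. The miR-200 family, typical of epithelia, held 1.14% ± 0.325 over 8 rows, led by miR-141-3p with 0.502% ± 0.218 and miR-200a-3p with 0.467% ± 0.156. miR-182, known for its expression in sensory cells, made up 99.9% of the list for the cluster of miR-183, miR-96 and miR-182. That list held 0.320% ± 0.111 over 2 rows, miR-182 and miR-96-5p. It had no row for miR-183, so the value says nothing about miR-183.

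Markers of erythroid, endothelial, neuronal, liver and Sertoli cells held small shares of the table. Even so, miR-451-5p, miR-9a-5p and miR-126a-5p of the erythroid, neuronal and endothelial lists ranked 104, 108 and 109 of the 425 rows. The 4 rows of the erythroid list summed to 0.0273% to 0.0895% of a library, led by miR-451-5p with 0.0265% ± 0.00917. The endothelial list, miR-126a, summed to 0.0212% to 0.0318%, the neuronal list to 0.0187% to 0.0352%, and miR-122-5p of liver to 0.00125% to 0.00279%. miR-202-3p, a miRNA of Sertoli cells, was at 0 in 5 of the 7 libraries, where a count of 0 allows a share of up to 0.000374% to 0.000760%. The leukocyte list summed to 2.09% to 4.81%, with a mean of 2.88% that was 2.56% without replicate 6, but miR-146b-5p, which other tissues express too, made up 93.6% of it. Next was miR-146a-5p, with a mean share of 0.115%. Of the more restricted members of this list, miR-142-5p held 0.0531% ± 0.0125 at rank 80, whereas its other arm miR-142-3p held 0.000559% ± 0.000250 and miR-223-3p held 0.000630% ± 0.000507. Likewise miR-143-3p, a miRNA of smooth muscle and fibroblasts, made up 99.4% of the muscle and stroma list, which summed to 1.54% to 2.79%, while miR-145-5p and miR-1-3p held 0.00538% ± 0.00160 and 0.00261% ± 0.00111. Within bulk RNA, fewer cells of a type and less RNA per cell cannot be told apart.

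**Figure D2:**
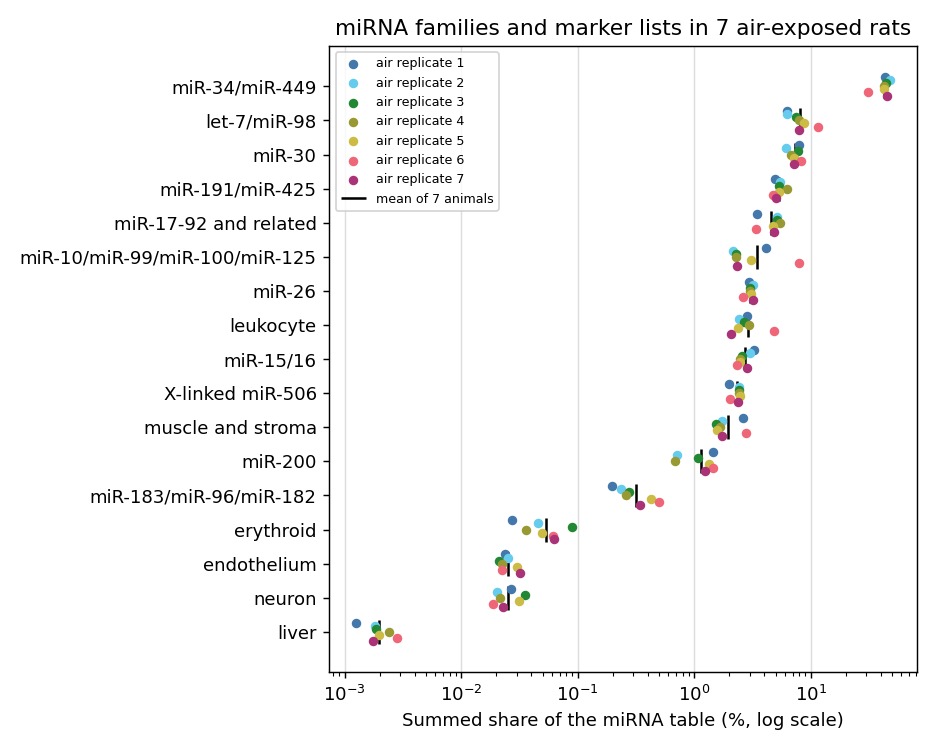
Summed share of the miRNA table (x axis, percent, log scale) of each family or marker list, 1 coloured point for each of the 7 air-exposed rats and a black line at their mean. miR-34/miR-449 holds 42.6% on average and the liver marker 0.00198%; the Sertoli cell marker is not drawn because it is at 0 in 5 libraries.

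Replicates 1 and 6 were the animals most often farthest from the others. Among 122 miRNAs with a mean scaled value of at least 100, the animal farthest from the mean on the log2(value + 1) scale was replicate 6 for 47 and replicate 1 for 43, against 3 to 11 for each of the other 5 animals. The 2 animals shared several features and lay at opposite ends in others. They had the lowest shares of the X-linked miR-506 family, with 2.05% in replicate 6 and 2.00% in replicate 1 against 2.39% to 2.49% in the rest. Members of that family did not all follow. In scaled value miR-743b-3p and miR-743a-3p were lowest in these 2 animals, whereas miR-743b-5p was highest (318 and 338 against 216 to 265). The miR-10 group had its highest shares in them, with 7.91% and 4.12% against 2.15% to 3.06%. The muscle and stroma list, that is miR-143-3p, was also highest in these 2 animals, with 2.79% in replicate 6 and 2.61% in replicate 1 against 1.54% to 1.73%. The miR-17-92 and related clusters, mostly miR-25-3p, were lowest, with 3.39% and 3.45% against 4.75% to 5.43%. Other members of those clusters did not all follow: the scaled value of miR-19a-3p was lowest in replicate 6 (137) and highest in replicate 1 (391). The 2 animals parted in the miR-34/miR-449 family, with 30.8% in replicate 6 and 43.9% in replicate 1. They were also the 2 extremes for other families. let-7 and miR-98 held 11.7% in replicate 6, the highest share, and 6.27% in replicate 1, the lowest. The list of miR-182 and miR-96-5p likewise held 0.504% and 0.197%. The miR-15 and miR-16 list went the other way, with 2.35% in replicate 6, the lowest share, and 3.30% in replicate 1, the highest. The epithelial miR-200 list was highest in both animals, with 1.45% in each against 0.688% to 1.35% in the rest. Its members differed. In scaled value miR-141-3p (4344 and 5541 in replicates 6 and 1) and miR-429 (571 and 469) were highest in both. In replicate 1, however, miR-200c-3p was lowest of all animals (393), and miR-200a-3p was 2432 against 4026 in replicate 6. Lcn5 held 0.0641% of the transcript table in replicate 6 and 0.0613% in replicate 1, below 0.114% in replicate 7 and above 0.0345% to 0.0561% in the other 4 animals. Replicate 6 had the fewest miRNA reads and replicate 1 the most. Whether depth or other cell types had a part in these differences was not tested.

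Base composition of the miRNAs was read from the matched sequences. miRNAs that start with A made up 27.5% of the rows with a sequence but 45.9% ± 4.83 of their signal, with miR-34c-5p and miR-34b-3p among them. Those that start with U made up 41.7% of the rows and 42.3% ± 5.34 of the signal. C held 10.2% ± 0.939 of the signal with 20.5% of the rows, and G only 1.53% ± 0.202 with 10.4% of the rows. By length, annotated miRNAs of 22 bases held 52.3% ± 1.79 and those of 23 bases 42.3% ± 2.77 of the signal. In replicate 6 the share of A was 35.5% and that of U 53.5%, whereas A exceeded U in each of the other 6 animals.

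Some rows of the miRNA table described the same signal. let-7a-5p and miR-3596a, printed here because each is the reverse complement of the other, had identical values in all 23 libraries, 1.84% ± 0.558 of the table in air.
let-7a-5p: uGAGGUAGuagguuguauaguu
miR-3596a: aACUAUACaaccuacuaccuca
Among 13 pairs of rows complementary over at least 18 bases, 7 were complementary from end to end, and 6 of those 7 had identical values in each library. The exception was miR-125b-5p with a scaled value of 29.4 ± 8.30 and miR-3588 with 28.1 ± 9.13. Pairs that were complementary but offset did not share their values, as with miR-130a-3p at 454 ± 102 and miR-3590-5p at 919 ± 331. The sources used here do not say how reads were assigned to a strand, so the 6 identical pairs count the same signal under a pair of names. Without the second name of each pair, miR-34c-5p held 27.3%.

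The let-7 family varied among its members although their sequences are nearly alike. These 4 members are shown because they differ from each other by 1 to 3 bases.
let-7a-5p: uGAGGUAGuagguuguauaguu
let-7c-5p: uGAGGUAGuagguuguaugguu
let-7b-5p: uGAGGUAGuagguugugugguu
let-7f-5p: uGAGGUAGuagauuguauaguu
Relative to let-7a-5p, with positions from the 5′ end, let-7c-5p carries A19G, let-7b-5p carries A17G and A19G, and let-7f-5p carries G12A. let-7c-5p stood at 0.902 ± 0.300 of let-7a-5p, from 0.447 in replicate 1 to 1.33 in replicate 7. let-7b-5p stood at 0.334 ± 0.138 of let-7a-5p, from 0.135 in replicate 1 to 0.525 in replicate 7. Replicate 1 was thus lowest and replicate 7 highest in both ratios. In scaled value let-7b-5p was 3816 ± 1682, and its coefficient of variation (CV, the SD over the mean) after counting variance was taken off was 44.0%. The 10 let-7 and miR-98 rows that averaged at least 100 had a median CV of 34.5%, and let-7g-5p held 1.16% ± 0.137 of the table. Reads of members that differ by 1 base can be shared between their rows, depending on the mismatches allowed in alignment, which the sources used here do not state.

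Most hairpins had far more read signal from 1 arm than from the other. The amount of either strand was not measured. A miRNA hairpin gives a 5p and a 3p strand, of which usually 1 is kept by Argonaute proteins. Of 124 hairpins with a row for both arms, 103 had a summed mean of at least 10 and were tested with limma on the log2(value + 1) scale, pairing the arms within each animal. The arms differed for 98 of the 103 (95.1%, Benjamini-Hochberg adjusted p under 0.05, two-sided), with 5p higher for 59 (57.3%) and 3p higher for 39 (37.9%). The 5p arm was higher in all 7 animals for 55 hairpins and the 3p arm for 38, and 1 more had a tie in 1 animal. 5p held over 90% of both arms in 45 hairpins, under 10% in 25 and between these limits in 33.

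Among the 6 hairpins with the highest signal, 5 gave nearly their whole signal as 5p. The 5p arm held 98.5% ± 0.215 of miR-34c, 99.9% ± 0.0162 of miR-449a, 95.9% ± 1.32 of miR-30a, 99.7% ± 0.0743 of miR-191a and 99.9% ± 0.0493 of miR-10a. miR-34b, the hairpin that lies next to miR-34c on the same primary transcript, went the other way. Its 3p arm had a scaled value of 41074, 57100, 42021, 50499, 39924, 39173 and 36781 in replicates 1 to 7, against 13446, 13539, 14913, 11800, 14200, 6517 and 14725 for its 5p arm. The 2 arms did not overlap, and 3p was higher in 7 of 7 animals. 5p held 22.6% ± 5.18 of the hairpin, from 14.3% in replicate 6 to 28.6% in replicate 7, and the log2 ratio of 5p over 3p was −1.81 ± 0.163 (SE, limma adjusted p = 3.53e-07). For miR-34c the log2 ratio was 6.08 ± 0.102 (SE, limma adjusted p = 4.99e-14). The 5p arms of miR-34c and miR-34b differ only by G11A and C23U, and whether their rows share reads was not tested.

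In 9 of the 103 hairpins the higher arm was not the same in all animals. The one with the most signal was miR-30e, with 1747 ± 287 for 5p and 2292 ± 295 for 3p in scaled value. 3p was higher in 6 of 7 animals and 5p in replicate 1, where it held 53.5% of the hairpin. The log2 ratio was −0.40 ± 0.179 (SE, limma adjusted p = 0.0497), and the call was lost when any of replicates 2 to 7 was left out, with adjusted p from 0.0550 to 0.139. miR-1843a had 57.8% ± 5.96 on its 5p arm, which was higher in 6 of 7 animals, with a limma adjusted p of 0.0283 that was 0.0594 to 0.0843 without replicate 3, 6 or 7. miR-195 had 74.4% ± 15.2 on its 5p arm, with a range of 48.3% to 93.6% and a limma adjusted p of 0.00168. miR-742, of the X-linked miR-506 list, and miR-547, which is not on that list, were not called, with 56.0% ± 12.0 and 45.6% ± 7.97 on 5p and limma adjusted p-values of 0.257 and 0.357. The 95% interval of their log2 ratio ran from −0.27 to 0.94 for miR-742 and from −0.76 to 0.29 for miR-547. The other hairpins not called were miR-339, miR-1247 and miR-708, which averaged between 10.5 and 20.3 in summed scaled value.

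**Figure D3:**
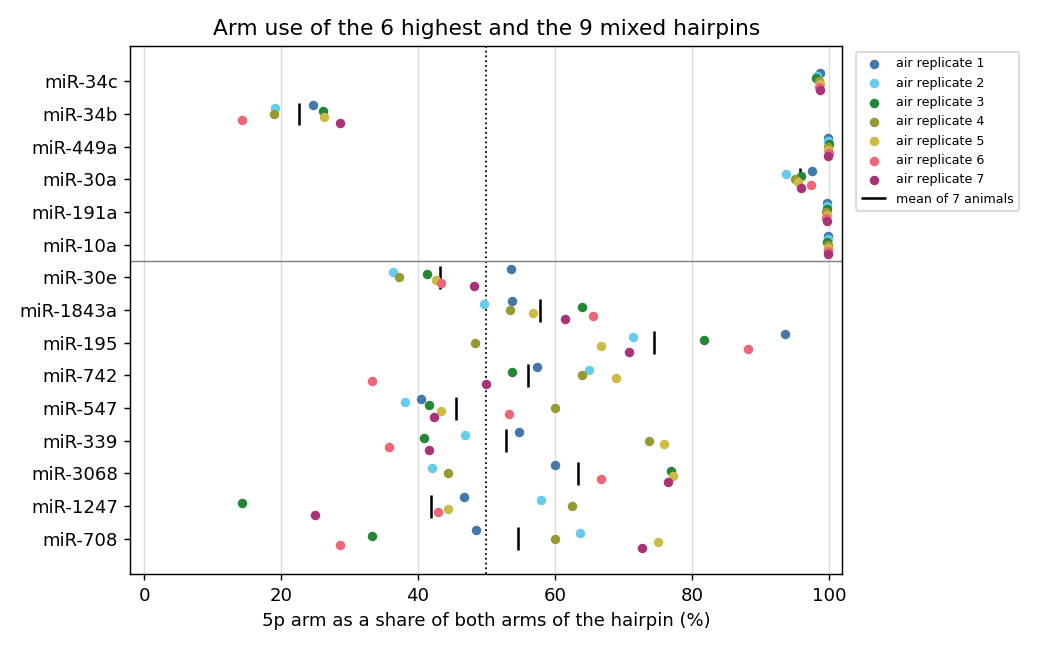
Share of the 5p arm in the signal of both arms (x axis, percent) for the 6 hairpins with the highest signal (above the grey line) and the 9 hairpins whose higher arm was not the same in all animals (below it), 1 coloured point for each of the 7 air-exposed rats, a black line at their mean and a dotted line at equal use. miR-34b lies at 22.6% while miR-34c, miR-449a, miR-191a and miR-10a lie at 98.5% or more.

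The spread between animals was larger than counting error for nearly all abundant miRNAs. Over the 122 miRNAs with a mean of at least 100, the CV that remained after counting variance was taken off had a median of 23.0%, with quartiles of 15.7% and 31.3%. Counting alone would give a median CV of 3.71%. 48 miRNAs stayed under 20% and 3 exceeded 50%. The median was 17.6% without replicate 6.

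miR-26a-5p varied least, with a CV of 3.70% and scaled values from 16898 to 19035. It was followed by miR-30d-5p with 6.43%, miR-27b-3p with 8.20%, miR-181c-5p with 9.13% and miR-22-3p with 9.61%. The most variable was miR-151-5p, with a CV of 93.9% and scaled values of 521, 203, 128, 129, 163, 893 and 137 in replicates 1 to 7, high in replicates 1 and 6. miR-10a-5p had 69.2%, and its scaled value was 49511 in replicate 6 and at most 22564 in the others. miR-184 had 67.5%, with 1492 in replicate 6 and at most 574 in the others. Without replicate 6 the CV of miR-151-5p was 71.5%, that of miR-10a-5p 29.0% and that of miR-184 15.8%. miR-144-5p, a red cell miRNA, had 47.3% and ranged from 60.5 in replicate 1 to 224 in replicate 3. miR-99b-5p had 47.1%, with 2139 in replicate 6 and 1993 in replicate 1. By list, the median CV was 16.6% for 5 miR-34/miR-449 rows and 16.3% for 9 rows on the miR-506 list. It was 32.4% for 5 miR-200 rows and 30.8% for 6 rows of the miR-10 group.

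**Figure D4:**
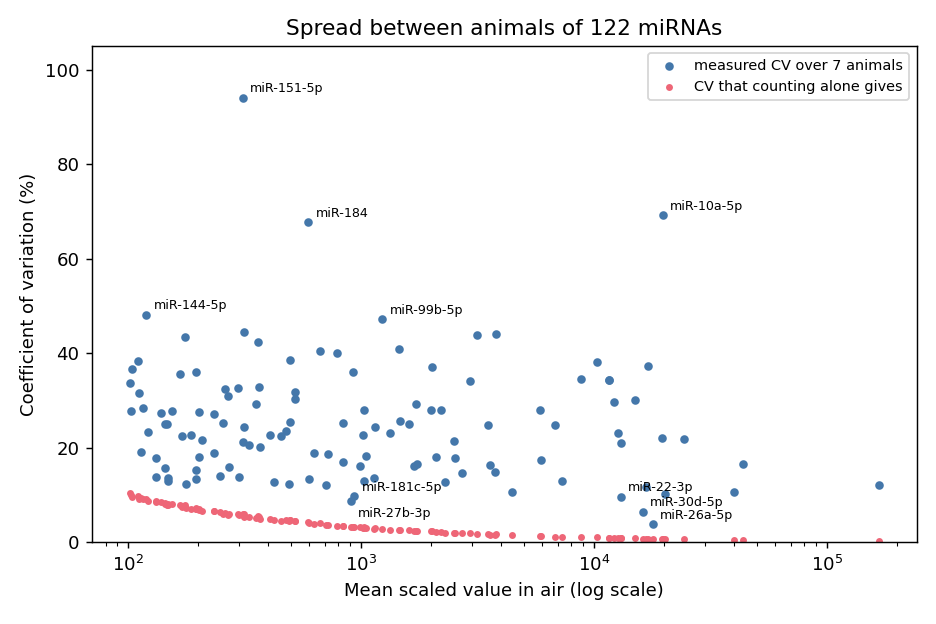
CV over the 7 air-exposed rats (y axis, percent) against the mean scaled value (x axis, log scale) of 122 miRNAs, in blue as measured and in red as counting alone would give. miR-26a-5p, with a CV of 3.77% as measured, lies at the bottom right, and miR-151-5p, with 94.1%, at the top.

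In the tRNA table the glycine and leucine isotypes held most of the signal. tRNAs carry amino acids to the ribosome and are named by amino acid and anticodon, and the table gives reads at 273 tRNA genes with no fragment ends, so long and short fragments and whole tRNAs cannot be told apart. Gly rows held 41.3% ± 4.56, Leu rows 24.5% ± 4.52 and Glu rows 10.6% ± 1.38 of the table (SD, n = 7), followed by 34 rows named tRX, which are tRNA-like genes without an assigned role, with 7.41% ± 1.19. The remaining isotypes ran from Val with 4.04% ± 0.538 down to Phe with 0.00567% ± 0.00289 and Pro, a single row, with 0.000767% ± 0.000388.

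By anticodon, Gly-GCC ranked highest with 32.6% ± 3.63 over 11 rows, and its share was 28.3% in the lowest animal, 31.9% in the median one and 38.7% in replicate 6. Leu-CAA came next with 18.4% ± 3.72 over 3 rows, from 12.6% in replicate 6 over a median of 17.3% to 23.6% in replicate 3. The 2 ranges did not overlap, and the ratio of Leu-CAA to Gly-GCC ran from 0.325 in replicate 6 to 0.820 in replicate 3. Gly-CCC held 8.63% ± 0.946, Glu-CTC 6.54% ± 0.764, tRX-Gly-NNN 5.57% ± 0.955 and Glu-TTC 4.06% ± 1.41. SeC-TCA, the tRNA that inserts selenocysteine at UGA codons, held 3.71% ± 0.594 with 1 row out of 273. Leu-AAG held 2.85% ± 0.398, Val-AAC 2.81% ± 0.420 and Leu-TAG 2.32% ± 0.660. Glu-TTC and Leu-TAG were lowest in replicates 1 and 6, with 2.22% and 2.25% of the table for Glu-TTC and 1.38% and 1.35% for Leu-TAG, against at least 3.67% and 2.46% in the other animals. Glu-TTC stood at 0.297 to 0.915 of Glu-CTC.

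**Figure D5:**
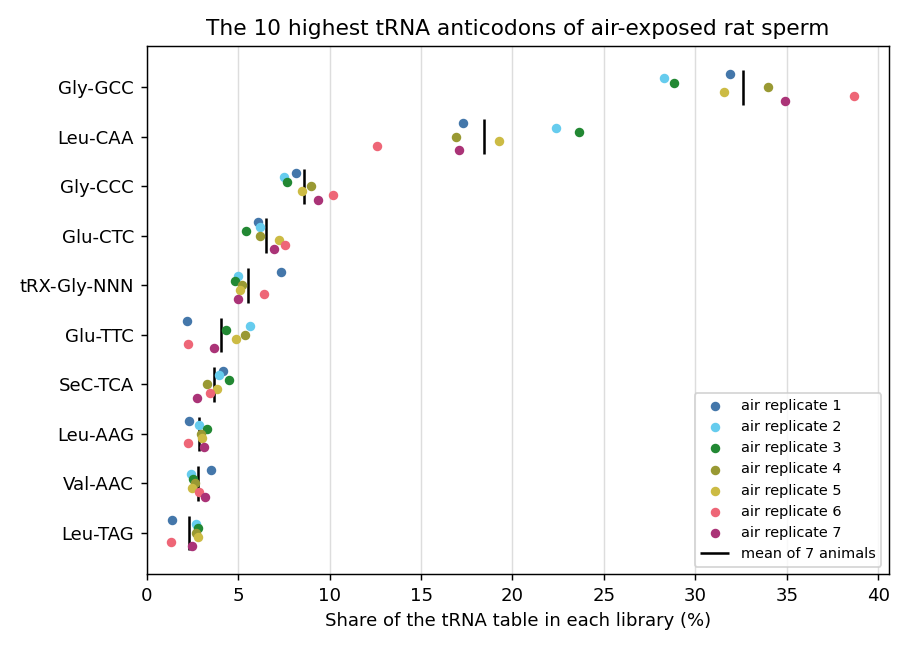
Share of the tRNA table (x axis, percent) of the 10 anticodons with the highest mean share, 1 coloured point for each of the 7 air-exposed rats and a black line at their mean. Gly-GCC averages 32.6% and Leu-CAA 18.4%, and replicate 6 is highest for the one (38.7%) and lowest for the other (12.6%).

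Use of anticodons, in summed signal, was uneven within some isotypes and nearer to even within others. Gly-GCC held 79.0% ± 0.266 of the Gly signal with 44% of the Gly rows, whereas Gly-TCC held 0.107% ± 0.0369 with 36% of the rows. The small spread of the Gly-GCC share goes with Gly-CCC-1-1, which made up 96.0% of Gly-CCC and moved with Gly-GCC-1-5 over all 23 libraries. Leu-CAA held 75.1% ± 2.25 of the Leu signal with 13.0% of the rows, whereas Leu-CAG held 0.367% ± 0.145 with 39.1% of the rows. Lys-TTT held 73.6% ± 3.45 of the Lys signal with 37.5% of the rows. Gln-TTG and Gln-CTG held 52.5% and 47.5% ± 3.42 each of the Gln signal, with 30.8% and 69.2% of the rows. Thr-CGT, Thr-TGT and Thr-AGT held 38.4% ± 10.8, 31.6% ± 5.45 and 30.0% ± 6.57 of the Thr signal, with 12.5%, 37.5% and 50% of the rows. Gln and Thr held only 0.0973% and 0.0381% of the tRNA table. For glutamate the balance moved between animals: Glu-CTC held 62.4% ± 9.86 of the Glu signal, from 52.2% in replicate 2 to 77.1% in replicate 6.

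Many tRNA rows did not move on their own, and whether they share reads was not tested. Over all 23 libraries, 30 of the 273 rows followed a higher row with a Pearson r of at least 0.99. Gly-GCC-1-3, Gly-GCC-1-5, Gly-GCC-1-6 and Gly-CCC-1-1 lay within 0.975 to 1.02 of their common mean in each animal and together held 33.6% ± 3.79 of the table, so their values do not separate Gly-GCC from Gly-CCC. Followers also crossed anticodons for Ser-TGA-4-1, which followed Ser-AGA-1-3, for tRX-Glu-NNN-3-1, which followed Glu-CTC-1-2, and for 3 Val-AAC rows, which followed Val-CAC-1-2. With the 30 rows left out, Gly-GCC stood at 22.2% and Leu-CAA at 21.1%. Gly-CCC then held 0.699%, SeC-TCA 7.48% and tRX-Gly-NNN 11.3%. Among 127 tRNA rows with a mean of at least 100, the CV of the scaled values over animals had a median of 22.6% and ranged from 10.1% to 37.7%, counting error included.

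The piRNA table listed 30676 rows, of which 15512 repeated an earlier row exactly in all 23 libraries, and the 15164 distinct rows were used. The largest set of identical rows had 107 members. Its values are fractional, so the depth behind them is unknown. The highest was piR-rno-3104129 with 6.43% ± 1.02 of the distinct rows, from 4.99% in replicate 7 to 8.25% in replicate 3. piR-rno-2129341 followed with 4.54% ± 0.723, piR-rno-2225649 with 3.76% ± 0.523, piR-rno-2129443 with 3.50% ± 0.583, piR-rno-856566 with 3.22% ± 0.504 and piR-rno-856564 with 3.21% ± 0.503. Ranks 7 to 10 were piR-rno-2141311, piR-rno-856561, piR-rno-3436093 and piR-rno-2300456, with 2.64% down to 1.97%. The 200 highest rows held 85.3% ± 2.05 of the distinct signal, and 406 rows with a mean of at least 1000 held 90.7%.

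Many of the leading piRNA rows moved in lockstep. Among the 30 highest, 41 pairs kept a ratio whose CV over the 7 animals was under 5%, and these pairs involved 21 of the 30 rows. piR-rno-3104129 had 2.00 ± 0.00558 times the value of piR-rno-856566 and 5.24 ± 0.0107 times that of piR-rno-2170397. The ratio of piR-rno-856566 to piR-rno-856564 stayed between 0.998 and 1.005. A set of 8 rows led by piR-rno-889324 kept ratios between 0.978 and 1.27 to each other. Whether such rows share reads or are separate RNAs was not tested, so a count of them is not taken as a count of RNAs. Over the 200 highest rows the CV of the share between animals had a median of 24.3%, from 7.92% for piR-rno-2083774 to 139% for piR-rno-2096773. The CV of the scaled value, which also carries differences in the table's total, had a median of 32.9%, from 15.4% for piR-rno-2181339 to 127% for piR-rno-2096773. On that scale the median was 33.7% for the 406 rows with a mean of at least 1000 and 46.9% for rows between 10 and 1000.

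The transcript table was dominated by 1 mitochondrial transcript. It places small RNA reads, from RNA shorter than 200 bases, on 617 Ensembl transcripts, so a row does not measure intact mRNA. AY172581.24, a mitochondrial transcript other than an mRNA, held 43.9% ± 8.93 of the table, with 33.8% in replicate 7, a median of 39.9% and 59.2% in replicate 4. The 15 mitochondrial transcripts that are not mRNAs held 49.8% ± 9.60, and the second of them, AY172581.9, held 3.50% ± 1.04. The 7 mitochondrial mRNAs held only 0.0495% ± 0.0111. The 496 transcripts of nuclear protein-coding genes held 36.6% ± 9.29, and 98 transcripts without a RefSeq match held 13.5% ± 2.94.

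Stat2, which encodes a transcription factor of interferon signalling, had the highest mean share after AY172581.24, 9.53% ± 7.68. It held 3.83%, 3.47%, 7.27%, 7.09%, 8.18%, 25.9% and 10.9% in replicates 1 to 7, high in replicate 6, and 6.80% on average without that animal. Olr1568, an olfactory receptor gene, held 5.40% ± 2.49 with a range of 2.36% to 9.16%, and Pcdhga7, a clustered protocadherin, held 4.72% ± 1.44. The 4 transcripts of ENSRNOG00000061304, which the annotation used here does not name, summed to 8.10% ± 2.08. They exceeded Stat2 in 4 of 7 animals and averaged 8.69% without replicate 6, so the place of Stat2 rests on that animal. Trim17, an E3 ubiquitin ligase, held 2.27% ± 0.440 and ENSRNOG00000069312 held 1.93% ± 0.502. Over the 267 rows with a mean of at least 10, the median CV of the scaled values between animals was 33.9%.

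The 4 tables, of 425 miRNA, 273 tRNA, 15164 distinct piRNA and 617 transcript rows, differed in how far a few rows dominated. Their rows differ in number, and many tRNA and piRNA rows move together, so these values describe the tables and do not rank the RNA classes. The 10 highest rows of each library held 62.7% ± 1.89 of the miRNA table, 64.1% ± 1.12 of the tRNA table, 34.4% ± 2.33 of the distinct piRNA rows and 78.1% ± 3.79 of the transcript table. The effective number of rows, the exponential of the Shannon entropy, was 27.2 ± 2.58 for miRNA, 36.9 ± 2.08 for tRNA, 198 ± 27.1 for piRNA and 15.4 ± 4.12 for transcripts, and ranged from 8.89 in replicate 4 to 20.9 in replicate 7 in the last. Replicate 6 had the most even miRNA table, with 32.5 effective rows against 24.3 to 27.5 in the other animals, whose mean was 26.3. Profiles were most alike for miRNA and tRNA. An animal's median Pearson r with the other 6, over log2(value + 1) of rows with a mean of at least 10, was 0.976 to 0.985 for 226 miRNA rows, 0.975 to 0.989 for 248 tRNA rows, 0.893 to 0.945 for 267 transcript rows and 0.825 to 0.878 for 7445 piRNA rows. These correlations run across rows that share libraries and are a description only. Replicate 6 had the lowest median r in each of the 4 tables.

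Shares were set against each other over the 7 animals for 8 pairs, with two-sided exact permutation tests and Benjamini-Hochberg adjustment over the 8. Gly-GCC and Leu-CAA were inversely related, with a Pearson r of −0.959 (exact permutation p = 0.00159, adjusted 0.0127) and a Spearman rho of −0.929 (exact permutation p = 0.00675, adjusted 0.0540). Without replicates 2 and 6, the animals farthest from the median, r was −0.897 over 5 animals (exact permutation p = 0.0167 before adjustment). The call was lost without replicate 2, 3, 5 or 6 (exact permutation adjusted p = 0.0667 to 0.0889). Shares of 1 table add up to a fixed total, so a gain of a large group lowers the rest. On the log2 summed scaled values, which are not bound in this way, r was −0.148 (exact permutation adjusted p = 0.849). The share of the miR-34/miR-449 family had an r of −0.919 with let-7/miR-98, −0.938 with the miR-10 group and −0.805 with Gly-GCC, none of which passed the adjustment (exact permutation adjusted p = 0.0540 for each). Without replicates 2 and 6 these r values were −0.235, −0.222 and 0.134. Without replicate 6 alone they were −0.603, −0.411 and −0.480, and without replicate 2 alone −0.901, −0.944 and −0.754. The relations thus rest mostly on replicate 6. Spearman's rho was −0.643, −0.750 and −0.536 for the same pairs (exact permutation adjusted p = 0.370, 0.265 and 0.471). The relations of the family with miR-200, muscle and stroma, the miR-506 family and the mitochondrial share had r of −0.508, −0.690, 0.572 and 0.315 (exact permutation adjusted p = 0.128 to 0.565).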

How the data were processed

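Small RNA was isolated with the mirVana procedure, made into libraries with the CleanTag kit and read on a NextSeq 500 as single ends of 75 cycles, per the labels' protocols, which give RNA integrity numbers for all samples together and not for each. Partek, Bowtie 1.0.0 and the rat build rn6 stand in the submitters' processing notes, and the sources used here do not say how reads were assigned to rows, strands and copies.

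Each of the 4 deposited tables holds a scaled read signal for all 23 libraries. Each table's median ratio to the geometric mean of its rows was equal in all libraries, so each had been scaled on its own. miRNA values were whole multiples of the value of 1 read (0.517 to 1.69) within 0.1 read for 100% of the 241 to 256 low values checked per library, which gave 394925 to 1199769 reads. The depth behind tRNA, piRNA and transcript values is unknown.

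Shares were computed per library (Python 3.11.15, pandas 2.3.3), arm ratios with limma 3.58.1 in R 4.3.3 (pseudocount 1, summed mean of at least 10), and relations by exact permutation (scipy 1.17.1). Counting variance of a value was taken as the value times that of 1 read. The tests were tested on simulated data. Named rows are the 10 highest of each table, leading members of each list, leading and mixed hairpins, the most and least variable miRNAs, and the markers. Markers and lists were chosen with earlier results of these data known. The GRCr8 annotation and sequences are of another build and were used for names, classes and sequences alone. P-values measure the spread between 7 animals. Alternatives left out each animal, low rows, repeated rows, tRNA rows that follow a higher row, tRX rows or mitochondrial rows. Others used medians over animals, other pseudocounts, filters and seeds, or summed scaled values.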

Additional observations from a re-analysis of the deposited data

Results flagged for a closer look

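The spread of 103 named values over the 7 animals was checked for an animal far from the others, by the gap to its nearest neighbour as a fraction of the whole range, with Dixon's 95% limit for 7 samples, which chance exceeds in about 1 in 20 groups. It was exceeded 13 times, 12 of them by replicate 6 and 1 by replicate 7, and several of these values describe the same signal. Replicate 6 was lowest for the share of miR-34c-5p (18.8%, next 25.9%), the miR-34/miR-449 family (30.8%, next 42.9%), the seed GGCAGUG (24.7%, next 34.4%) and the miR-26 family (2.65%, next 2.98%). It was highest for the share of miR-10a-5p (7.40%, next 3.64%), the miR-10 group (miR-10, miR-99, miR-100 and miR-125) (7.91%, next 4.12%), miR-146b-5p (4.60%, next 2.78%), the leukocyte list, which miR-146b-5p leads (4.81%, next 2.95%), and Stat2 in the transcript table (25.9%, next 10.9%). It was also highest in the scaled value of miR-10a-5p (49511, next 22564) and of miR-184 (1492, next 574), and in the effective number of miRNA rows (32.5, next 27.5). Replicate 7 was lowest in the scaled value of miR-30d-5p (13940, next 16027), a miRNA that otherwise hardly varied.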

How the results depend on the processing

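Leaving out tRNA rows that follow a higher row, or counting repeated piRNA rows, moved several shares. Those tRNA rows are not exact repeats, and whether they share reads was not tested. Without them Gly-GCC held 22.2% in place of 32.6%. With all deposited piRNA rows in place of the distinct ones, an alternative planned for the share and added after the data were seen for the concentration, piR-rno-3104129 held 3.60% in place of 6.43%, and the 10 highest rows 20.2% in place of 34.4%. The share of miR-34c-5p ranged from 26.3% to 28.1% and that of GGCAGUG from 34.6% to 37.0% when each animal was left out. Gly-GCC ranged from 31.6% to 33.3%, piR-rno-3104129 from 6.13% to 6.67%, AY172581.24 from 41.4% to 45.6%, and the median CV of miRNAs from 17.6% to 23.8%. Arm calls numbered 55 to 59 for 5p and 38 to 40 for 3p when each animal was left out, and 63 and 44 without a filter, where more hairpins were tested. With a summed mean of at least 100 they numbered 41 and 27, because fewer were tested.

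The relation of Gly-GCC with Leu-CAA had r from −0.983 to −0.920 when each animal was left out and lost its call without replicate 2, 3, 5 or 6, with adjusted p from 0.0667 to 0.0889. It was also lost on log2 summed values (r = −0.148). Without replicates 2 and 6 r was −0.897, and the 5 animals left are too few for that loss to speak on stability. The relations of miR-34/miR-449 ranged from −0.974 to −0.603 with let-7/miR-98, from −0.968 to −0.411 with the miR-10 group and from −0.927 to −0.480 with Gly-GCC, and passed in 4 of these fits, without replicate 1 or 7. With the mitochondrial share the range was −0.0849 to 0.520, reversed without replicate 6. Without replicates 2 and 6, r reversed to 0.262 for miR-200, 0.0614 for muscle and stroma, −0.147 for the miR-506 family, 0.134 for Gly-GCC and −0.680 for the mitochondrial share. The cause of these changes was not tested.

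A share of miR-34c-5p with itself left out of the total, or of AY172581.24 without mitochondrial rows, has no value. Without miR-34c-5p in the total, miR-34b-3p held 9.58% and miR-449a-5p 8.80%, and without mitochondrial rows Stat2 held 18.3%. No paired analysis was possible because no second group of animals was described to pair replicates with, apart from the arm test, which paired both arms within each animal. With 7 animals and unknown depth in the tRNA, piRNA and transcript tables, counting error cannot be told apart from the spread between animals there.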
